A study of Homo sapiens with 12 samples.

Results

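The genes described here encode the SR proteins and the heterogeneous nuclear ribonucleoproteins (hnRNPs), taken as every row of the deposited table named SRSF with a number or HNRNP with letters and digits, without names that end as pseudogenes do. The rule found 37 of 58684 rows, 12 of them SRSF and 25 HNRNP genes. The RNA came from U2OS, a human osteosarcoma line, kept as stable cells with eIF4E-Flag or with the vector alone, and was sequenced as total RNA (input) or after immunoprecipitation with an antibody to the cap (Cap IP). The 4 groups were eIF4E Cap IP, vector Cap IP, eIF4E input and vector input, with 3 libraries each. The labels do not say whether replicates were separate cultures or how many clones the stable cells stand for, so the p-values cover no more than the spread among these libraries.

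SR proteins and hnRNPs bind nascent and mature mRNA in the nucleus. SR proteins carry arginine-serine repeats and mostly favour the use of nearby exons, whereas many hnRNPs counter them, package the transcript, or go with it to the cytoplasm. The m7G cap is added to RNA polymerase II transcripts early in their synthesis, and eIF4E is the protein that binds it when translation starts. The series title asks whether eIF4E raises the share of each transcript that carries a cap. Cap IP set against input is taken as the measure of that share here.

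Libraries held 1206321 to 1813486 counts, and SRSF and HNRNP rows together took 0.207% to 0.303% of the counts in Cap IP and 0.255% to 0.441% in input. EIF4E itself had 29, 26 and 27 counts in eIF4E Cap IP and 15, 12 and 30 in vector Cap IP, and 39, 27 and 23 in eIF4E input and 15, 9 and 15 in vector input. Its change in eIF4E against vector cells was 0.79 ± 0.35 on the log2 scale in Cap IP and 0.98 ± 0.36 in input, and neither passed (edgeR adjusted p = 0.492 and 0.231). Of the RNA polymerase III transcripts, which lack an m7G cap, 4 were tested. They summed to 27.7 to 41.6 CPM (counts scaled to library size with TMM factors) in eIF4E Cap IP and 7450 to 12500 CPM in eIF4E input. Their median log2 change from input to Cap IP was -8.29 in eIF4E cells and -8.33 in vector cells. The 13 mitochondrial mRNAs, also without an m7G cap, fell far less, by medians of -0.46 and -1.17. Of these 13, 4 were called lower in eIF4E cells (30.8%) and 6 in vector cells (46.2%), beside 23.3% and 21% of all genes. Rows named for RNA without an m7G cap thus fell unevenly from input to Cap IP, and the cause was not tested. The mitochondrial rows summed to 5560 to 27700 CPM in vector Cap IP and to 12300 to 33400 CPM in eIF4E Cap IP. Of 8 markers of bone and mesenchymal cells, 6 were tested, and their sum ranged from 1070 to 2830 CPM. TWIST1 had no count and COL1A2 had 2 counts in all libraries together. Of 6 epithelial markers, 4 were tested, with sums of 1370 to 6580 CPM, mostly KRT8, and 6 blood markers summed to at most 8.92 CPM.

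The strand of the counts limits every value above and below. The library kit keeps strand, but whether counting followed the strand of the gene or the other one could not be learned from the labels. Rows on the opposite strand of abundant mRNAs held far more counts than the mRNAs' own rows. PRDX1, a peroxiredoxin gene, averaged 121.4 counts per library, against 8921 for MMACHC, which lies opposite to it. TYMS, the thymidylate synthase gene, averaged 232.4 counts, against 8495 for ENOSF1. These 2 pairs were chosen after their values were seen. Over all pairs of a protein-coding and a lncRNA row with opposite exons and a mean of at least 100 counts in either row, the lncRNA row was the higher in 152 of 199, or 76.4%. The names used here therefore identify rows of the table, and it is not established that the counts of a row came from the RNA of that name. The raw reads were not analysed here.

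Among SRSF and HNRNP genes, 2 SRSF rows lay opposite rows with far more counts. SRSF2 encodes SC35, a founding SR protein, and shares 823 exonic bases, 27.7% of its exonic length, with MFSD11 on the other strand. SRSF2 had 78, 109 and 78 counts in eIF4E Cap IP and 102, 99 and 114 in vector Cap IP, with 212, 176 and 172 in eIF4E input and 144, 194 and 134 in vector input. MFSD11 had 4774, 5274 and 4453 counts in eIF4E Cap IP and 4472, 5372 and 4468 in vector Cap IP, with 3256, 2682 and 2543 in eIF4E input and 2344, 2794 and 2467 in vector input. The MFSD11 row was thus 27.9 times the SRSF2 row in mean count. MFSD11 was higher in Cap IP than in input by a log2 fold change of 1.88 ± 0.31 (SE) in eIF4E cells (edgeR's quasi-likelihood test, adjusted p = 8.61e-05 after Benjamini and Hochberg). SRSF2 changed by 0.02 ± 0.28 (edgeR adjusted p = 0.96) in the same cells. In vector cells the values were 1.67 ± 0.31 for MFSD11 (edgeR adjusted p = 0.000348) and 0.12 ± 0.28 for SRSF2 (edgeR adjusted p = 0.76).

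SRSF9, which encodes a small SR protein, shares 1725 exonic bases, 43.6% of its exonic length, with GATC, a gene of the mitochondrial glutaminyl-tRNA amidotransferase. Mean counts per library were 100.9 for SRSF9 and 2232 for GATC, 22.1 times as many. GATC was higher in Cap IP by 2.07 ± 0.32 in eIF4E cells (edgeR adjusted p = 4.25e-05) and by 1.81 ± 0.32 in vector cells (edgeR adjusted p = 0.000208). SRSF9 changed by 0.07 ± 0.28 in eIF4E cells (edgeR adjusted p = 0.855) and by 0.47 ± 0.28 in vector cells (edgeR adjusted p = 0.194). The row named HNRNPU-AS1, for an antisense RNA of HNRNPU, averaged 1030 counts and HNRNPU 723. It was higher in Cap IP by 3.34 ± 0.42 in eIF4E cells (edgeR adjusted p = 7.35e-06) and by 2.34 ± 0.40 in vector cells (edgeR adjusted p = 0.000182). Its position relative to HNRNPU was not checked, since GENCODE release 44 did not match the name. Of the 31 tested SRSF and HNRNP genes, 12 had exons opposite to another gene and 19 had none. Overlaps of called genes were 196 bases of HNRNPAB with PHYKPL, 3502 of HNRNPU with COX20 and 215 of HNRNPUL1 with TGFB1, and each of these opposite rows held fewer counts than the HNRNP row. HNRNPU also shares 779 bases and HNRNPUL1 391 bases with a lncRNA gene of the annotation on the other strand, and neither lncRNA was matched to a row, so their counts are not known here.

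**Figure D1:**
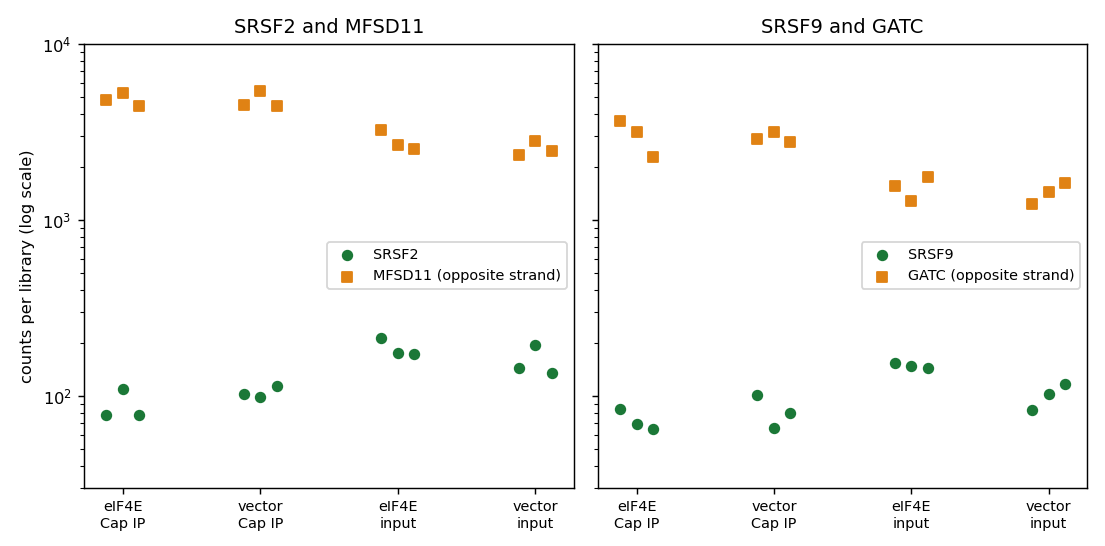
Counts per library on a log scale for SRSF2 with MFSD11 and for SRSF9 with GATC, 3 libraries in each of the 4 groups (circles, SRSF row; squares, row on the opposite strand). In every library the opposite row lies above the SRSF row, by 27.9 times for MFSD11 and 22.1 times for GATC in mean count.

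Start sites are shown for 5 of the 6 genes whose rows were called with the cap selection and for the 2 whose first bases look like a terminal oligopyrimidine start, since the cap sits on the first base. The first 20 transcribed bases are in capitals and the 30 bases before them in lower case, read 5′ to 3′ from RefSeq on GRCh38.p14.
HNRNPAB, chr5:178204503-178204552, + strand: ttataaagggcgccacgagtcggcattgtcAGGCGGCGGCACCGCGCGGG
HNRNPDL, chr4:82430443-82430492, - strand: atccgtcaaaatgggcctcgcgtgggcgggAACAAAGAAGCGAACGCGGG
SRSF5, chr14:69767112-69767161, + strand: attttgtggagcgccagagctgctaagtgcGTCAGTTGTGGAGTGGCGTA
HNRNPU, chr1:244864524-244864573, - strand: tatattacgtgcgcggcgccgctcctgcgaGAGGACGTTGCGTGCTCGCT
HNRNPUL1, chr19:41264342-41264391, + strand: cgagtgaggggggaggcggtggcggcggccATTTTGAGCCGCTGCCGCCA
HNRNPA0, chr5:137754344-137754393, - strand: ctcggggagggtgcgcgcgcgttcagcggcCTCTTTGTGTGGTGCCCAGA
SRSF9, chr12:120469729-120469778, - strand: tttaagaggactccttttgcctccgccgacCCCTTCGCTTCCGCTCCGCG
A start of C followed by 4 pyrimidines was found in 2 of 34 genes with a RefSeq start window, HNRNPA0 and SRSF9, or 5.88%, and in 5.14% of all genes. The letters GCCATNTT, searched on both strands of the 300 bases around the start and chosen after the sequences were seen, were found in 6 of 34 genes, or 17.6%, and in 7.97% of all genes. HNRNPUL1 held them, as did HNRNPC, HNRNPD, HNRNPM and SRSF1. HNRNPAB, HNRNPDL, SRSF5 and HNRNPU did not hold them in this window.

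The first comparison was Cap IP against input, within each kind of cell. In eIF4E cells 3 of 31 tested genes rose in Cap IP (HNRNPDL, HNRNPAB and HNRNPU) and 2 fell (HNRNPUL1 and HNRNPF). Over all 12460 tested genes, 21.9% rose and 23.3% fell, 45.1% in all. In vector cells HNRNPAB, HNRNPDL and SRSF5 rose and none fell, against 18.5% and 21% of all genes, 39.5% in all. DESeq2 also called 3 higher in vector cells and 1 lower, and 5 of the 31 had an unadjusted edgeR p under 0.05. The other 26 genes in eIF4E cells and 28 in vector cells did not pass. The median log2 fold change of the 31 was 0.30 in eIF4E cells and 0.28 in vector cells, and that of all genes was -0.13 and -0.04.

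**Figure D2:**
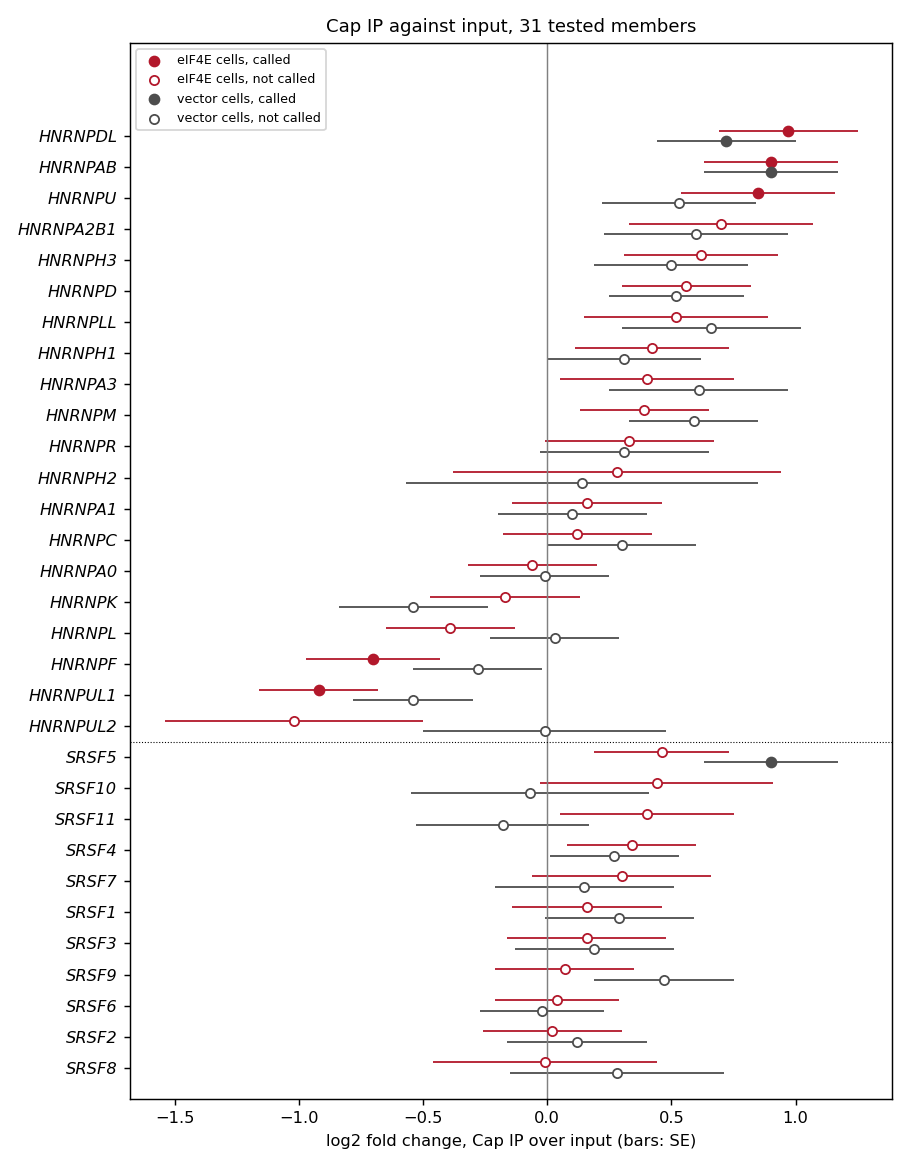
Log2 fold change of Cap IP over input with its SE for the 31 tested genes, HNRNP above the dotted line and SRSF below it, in eIF4E cells (red, upper) and vector cells (grey, lower). Filled points passed an adjusted p of 0.05, and only HNRNPAB and HNRNPDL are filled in both kinds of cell.

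HNRNPAB encodes hnRNP A/B, also known as CArG box-binding factor A. It had 439, 543 and 507 CPM in eIF4E Cap IP and 227, 277 and 293 CPM in eIF4E input. In vector cells it had 389, 368 and 290 CPM in Cap IP and 212, 218 and 133 CPM in input. Every Cap IP library lay above every input library of the same cells. The fold change was 0.90 ± 0.27 in eIF4E cells (edgeR adjusted p = 0.0101) and 0.90 ± 0.27 in vector cells (edgeR adjusted p = 0.0124). Without vector input replicate 3 the vector call was lost, at 0.69 and an edgeR adjusted p of 0.0773. With total counts as library sizes both calls were lost, at 0.06 in eIF4E cells and 0.14 in vector cells (edgeR adjusted p = 0.834 and 0.659), and the eIF4E call also with mitochondrial mRNAs as library sizes and with no filter (0.313 and 0.0838).

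HNRNPDL encodes an hnRNP D-like protein that binds AU-rich RNA. It had 112, 112 and 119 CPM in eIF4E Cap IP and 76.3, 56.2 and 42.6 CPM in eIF4E input. It had 97.2, 109 and 119 CPM in vector Cap IP and 84.7, 57.2 and 56.1 CPM in vector input. The groups did not overlap in either kind of cell. It was higher by 0.97 ± 0.28 in eIF4E cells (edgeR adjusted p = 0.00804) and by 0.72 ± 0.28 in vector cells (edgeR adjusted p = 0.0427). The eIF4E call stood with any single library left out. It was lost with total counts as library sizes (0.09, edgeR adjusted p = 0.821), with mitochondrial mRNAs as library sizes (edgeR adjusted p = 0.316) and with no filter (0.0724). The vector call was lost without Cap IP replicate 1, 2 or 3 (edgeR adjusted p = 0.0558, 0.0862 and 0.114) and without input replicate 2 or 3 (0.13 and 0.143), and with total counts as library sizes its sign turned, to -0.01.

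HNRNPU encodes a nuclear matrix protein that binds RNA and chromatin. It had 637, 556 and 806 CPM in eIF4E Cap IP and 503, 419 and 184 CPM in eIF4E input, with 556, 476 and 617 CPM in vector Cap IP and 378, 408 and 354 CPM in vector input. The value of eIF4E input replicate 3 was the lowest of all 12 libraries. The fold change was 0.85 ± 0.31 in eIF4E cells (edgeR adjusted p = 0.0327) and 0.53 ± 0.31 in vector cells (edgeR adjusted p = 0.186). The call was lost without eIF4E input replicate 3, at 0.53 (edgeR adjusted p = 0.124), and without eIF4E Cap IP replicate 1, 2 or 3 (0.0661, 0.0504 and 0.154), and with total counts as library sizes the sign turned, to -0.03.

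HNRNPUL1, a relative of HNRNPU that acts in the DNA damage response, went the other way. It had 154, 167 and 186 CPM in eIF4E Cap IP and 295, 312 and 357 CPM in eIF4E input, with 183, 189 and 183 CPM in vector Cap IP and 254, 298 and 257 CPM in vector input. All Cap IP libraries lay below all input libraries. It fell by 0.92 on the log2 scale in eIF4E cells, with an SE of 0.24 (edgeR adjusted p = 0.0044). The change in vector cells was -0.54 ± 0.24 and did not pass by edgeR (adjusted p = 0.0791) but passed by DESeq2 (adjusted p = 0.0181). In vector cells HNRNPUL1 was called lower under 3 of 14 alternatives. HNRNPF, a splicing factor that binds G runs, had 80.0, 72.4 and 82.3 CPM in eIF4E Cap IP and 127, 134 and 119 CPM in eIF4E input. The Cap IP values lay below the input values without overlap, by -0.70 ± 0.27 (edgeR adjusted p = 0.0381). Without eIF4E input replicate 1 or 2 the adjusted p of HNRNPF was 0.0673 and 0.105, and without eIF4E Cap IP replicate 1, 2 or 3 it was 0.0813, 0.115 and 0.0646. In vector cells HNRNPF had 66.1, 99.8 and 81.7 CPM in Cap IP and 90.5, 129 and 81.4 CPM in input, which overlapped, with a change of -0.28 ± 0.26 (edgeR adjusted p = 0.414).

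SRSF5, first described as an SR protein gene induced by insulin, was the only SRSF row called in either kind of cell. It had 122, 84.1 and 105 CPM in vector Cap IP and 54.3, 43.8 and 67.5 CPM in vector input, without overlap. The change was 0.90 ± 0.27 in vector cells (edgeR adjusted p = 0.0114), and without vector input replicate 2 it was 0.77 (edgeR adjusted p = 0.0582). With total counts as library sizes it was 0.16 (edgeR adjusted p = 0.676), and with no filter 0.86 (edgeR adjusted p = 0.0514). In eIF4E cells it had 54.4, 54.1 and 66.4 CPM in Cap IP and 43.5, 36.2 and 47.2 CPM in input, again without overlap, and the change of 0.46 ± 0.27 did not pass (edgeR adjusted p = 0.178).

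**Figure D3:**
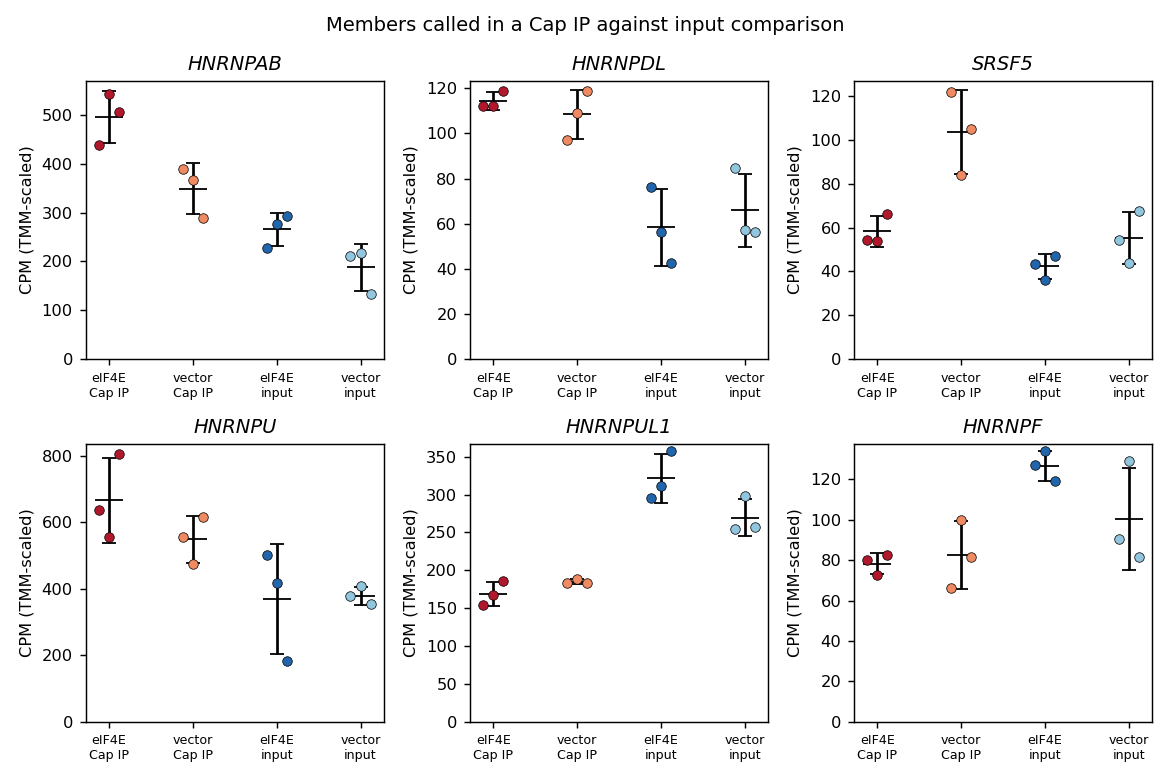
CPM in each of 3 libraries per group (points) with the mean and SD (bars) for the 6 genes called in a Cap IP against input comparison, groups from left to right eIF4E Cap IP, vector Cap IP, eIF4E input and vector input. HNRNPAB, HNRNPDL and HNRNPU lie higher in Cap IP under TMM scaling and HNRNPUL1 lies lower, and HNRNPU in eIF4E input has its lowest library at 184 CPM.

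None of the best known hnRNP genes other than HNRNPU passed in either kind of cell. HNRNPA1, a splicing repressor that shuttles between nucleus and cytoplasm, had 101, 110 and 108 CPM in eIF4E Cap IP and 111, 119 and 55.6 CPM in eIF4E input, with a change of 0.16 ± 0.30 (edgeR adjusted p = 0.691). In vector cells it had 109, 112 and 164 CPM in Cap IP and 98.3, 153 and 109 CPM in input, with a change of 0.10 ± 0.30 (edgeR adjusted p = 0.817). The groups overlapped in both kinds of cell. HNRNPA2B1, which encodes a reader of RNA sorting signals, had 201, 165 and 192 CPM in eIF4E Cap IP and 150, 159 and 34.3 CPM in eIF4E input, and 165, 174 and 176 CPM in vector Cap IP and 109, 128 and 103 CPM in vector input. Its Cap IP values lay above the input values without overlap in both kinds of cell, at 0.70 ± 0.37 in eIF4E cells and 0.60 ± 0.37 in vector cells, and neither passed (edgeR adjusted p = 0.131 and 0.205). HNRNPC, part of the core hnRNP particle, had 119, 88.9 and 78.3 CPM in eIF4E Cap IP and 106, 73.3 and 84.1 CPM in eIF4E input, and 133, 111 and 58.1 CPM in vector Cap IP and 79.5, 95.1 and 70.4 CPM in vector input. These ranges overlapped, with changes of 0.12 ± 0.30 and 0.30 ± 0.30. HNRNPK, a binder of C-rich RNA and DNA, had 71.8, 77.3 and 68.4 CPM in eIF4E Cap IP and 108, 89.9 and 47.2 CPM in eIF4E input. In vector cells it had 74.9, 55.7 and 83.6 CPM in Cap IP, below its 105, 119 and 89.4 CPM in input, and the change of -0.54 ± 0.30 did not pass (edgeR adjusted p = 0.152).

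SRSF1 and SRSF3 did not pass either, and their changes were smaller than their errors. SRSF1, the founding member known as ASF/SF2, had 104, 94.6 and 102 CPM in eIF4E Cap IP and 102, 109 and 57.1 CPM in eIF4E input, with 90.4, 139 and 79.8 CPM in vector Cap IP and 92.4, 95.7 and 63.2 CPM in vector input. SRSF3, the smallest SR protein and an adaptor for mRNA export, had 53.4, 26.1 and 36.7 CPM in eIF4E Cap IP and 43.9, 33.7 and 25.4 CPM in eIF4E input, with 40.8, 36.8 and 47.2 CPM in vector Cap IP and 34.3, 46.0 and 29.9 CPM in vector input. All these ranges overlapped. For SRSF1 the change was 0.16 ± 0.30 in eIF4E cells and 0.29 ± 0.30 in vector cells, and for SRSF3 it was 0.16 ± 0.32 and 0.19 ± 0.32. Of the 11 tested SRSF genes none was called in eIF4E cells (smallest adjusted p 0.178 by edgeR), where none had an unadjusted p under 0.05 and DESeq2 called none. Their median change was 0.16 in eIF4E cells and 0.19 in vector cells, and that of the 20 tested HNRNP genes was 0.36 and 0.31.

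In the main fit the remaining genes did not pass in either kind of cell. With the title stem as a block, 6 of the 31 were called higher and 2 lower in eIF4E cells. In vector cells 4 were then called higher and 0 lower. Not every gene called with this block is identified here. Positive values were found for HNRNPD (0.56 in eIF4E and 0.52 in vector cells), which destabilises AU-rich mRNAs, for HNRNPH3 (0.62 and 0.50), HNRNPLL (0.52 and 0.66), HNRNPM (0.39 and 0.59), HNRNPA3 (0.40 and 0.61), HNRNPH1 (0.42 and 0.31), HNRNPR (0.33 and 0.31) and HNRNPH2 (0.28 and 0.14). With the title stem as a block, HNRNPM passed in vector cells at 0.60 (edgeR adjusted p = 0.0336). Under 1 alternative setting each, HNRNPD and HNRNPA2B1 passed as higher in eIF4E cells (edgeR adjusted p = 0.0453 and 0.00712). HNRNPL, HNRNPUL2 and HNRNPK passed as lower in eIF4E cells under 1 each, as did HNRNPK and HNRNPF in vector cells. HNRNPL changed by -0.39 in eIF4E cells and 0.03 in vector cells, HNRNPUL2 by -1.02 and -0.01, and HNRNPA0 by -0.06 and -0.01. HNRNPUL2 had no more than 10.8 CPM in any library, and its SE was 0.52 in eIF4E cells. Of the other SRSF genes, SRSF4 changed by 0.34 in eIF4E cells and 0.27 in vector cells, SRSF6 by 0.04 and -0.02, SRSF7 by 0.30 and 0.15, SRSF8 by -0.01 and 0.28, SRSF10 by 0.44 and -0.07, and SRSF11 by 0.40 and -0.18. HNRNPCL1, HNRNPCL2, HNRNPCL3 and HNRNPCL4 had no count, HNRNPA1L2 had 3 and SRSF12 had 10 in all libraries together, and these 6 were not tested.

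The 31 genes spread less than the table as a whole. In eIF4E cells 30 of 31 (96.8%) lay within 1 log2 unit of no change, and 51.6% of all genes did. In vector cells 31 of 31 did, against 57.5% of all genes. The share called was 16.1% in eIF4E cells and 9.68% in vector cells, below the 45.1% and 39.5% of all genes; this difference of shares was not tested. Across all 8760 tested genes with a MANE Select transcript, Spearman's rho of the change with transcript length was -0.28 in eIF4E cells and -0.40 in vector cells, and across the 31 it was -0.02 and -0.15. These correlations are across genes that share libraries, and genes are not independent replicates. Tested genes with exons opposite another row had a median of 0.10 in both kinds of cell (3350 genes), and those without had -0.48 in eIF4E cells and -0.26 in vector cells (6305 genes). Of the 31, the 8 with exons opposite another row had medians of 0.51 and 0.52, and the other 23 had 0.28 and 0.19.

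Fold changes depended on the scaling. TMM factors were 0.667 to 0.891 in Cap IP and 1.17 to 1.49 in input. With total counts as library sizes the median of all genes moved to -0.99 in eIF4E cells and -0.78 in vector cells, and that of the 31 to -0.59 and -0.48. The 31 were then called 0 times higher and 10 times lower in eIF4E cells, and 0 and 6 times in vector cells. Relative to all genes the median of the 31 was 0.39 and 0.30 higher under total counts, and 0.43 and 0.32 higher under TMM. With mitochondrial mRNAs, which carry no m7G cap, as library sizes, the median of all genes was 0.03 in eIF4E cells and 0.97 in vector cells, that of the 31 was 0.38 and 1.50, and 0 and 3 of the 31 were called, all higher. Over all genes, 48.5% of the calls in eIF4E cells were higher under TMM and 15.8% under total counts, and in vector cells 46.9% were higher under TMM, 12.8% under total counts and 84% under mitochondrial mRNAs. In bulk RNA like this a lower CPM cannot tell less RNA per cell from fewer cells that hold it.

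The second comparison was eIF4E against vector cells, in Cap IP and in input. None of the 31 genes was called in Cap IP, where 0.225% of all genes were called (0.0803% higher and 0.144% lower). None was called in input, where 0.53% of all genes were (0.104% higher and 0.425% lower). DESeq2 called none either, and an unadjusted edgeR p under 0.05 was reached by 1 gene in Cap IP and 0 in input. The median change was 0.02 in Cap IP and 0.02 in input, and that of all genes -0.01 and -0.05. In Cap IP the block for the title tag raised the calls over all genes to 155, against 28 without it, and still none of the 31 was among them. With mitochondrial mRNAs as library sizes the median of all genes was -0.63 in Cap IP and 0.25 in input, and that of the 31 was -0.67 and 0.33, again with none called.

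SRSF5 was the gene with the lower p in Cap IP. It had 54.4, 54.1 and 66.4 CPM in eIF4E Cap IP against 122, 84.1 and 105 CPM in vector Cap IP, a change of -0.83 ± 0.27 without overlap (edgeR adjusted p = 0.325, unadjusted p = 0.00656). In input it had 43.5, 36.2 and 47.2 CPM in eIF4E cells against 54.3, 43.8 and 67.5 CPM in vector cells, a change of -0.39 ± 0.27 (edgeR adjusted p = 0.548), and the ranges overlapped. HNRNPAB had 439, 543 and 507 CPM in eIF4E Cap IP against 389, 368 and 290 CPM in vector Cap IP, and 227, 277 and 293 CPM in eIF4E input against 212, 218 and 133 CPM in vector input. Both pairs of groups were without overlap, and the changes of 0.51 ± 0.27 and 0.50 ± 0.27 did not pass (edgeR adjusted p = 0.593 and 0.419). Across the alternatives the HNRNPAB value in Cap IP ranged from -0.22 to 0.62. SRSF9 in input, at 60.9, 71.8 and 74.2 CPM in eIF4E cells against 53.7, 55.1 and 48.9 CPM in vector cells, was also without overlap, with a change of 0.39 ± 0.27 (edgeR adjusted p = 0.55). In all 1 gene was higher without overlap in Cap IP, where 6.16% of all genes were, 1 was lower, where 7.39% were, and 2 were higher and 0 lower in input, where 8.45% and 10.2% were.

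**Figure D4:**
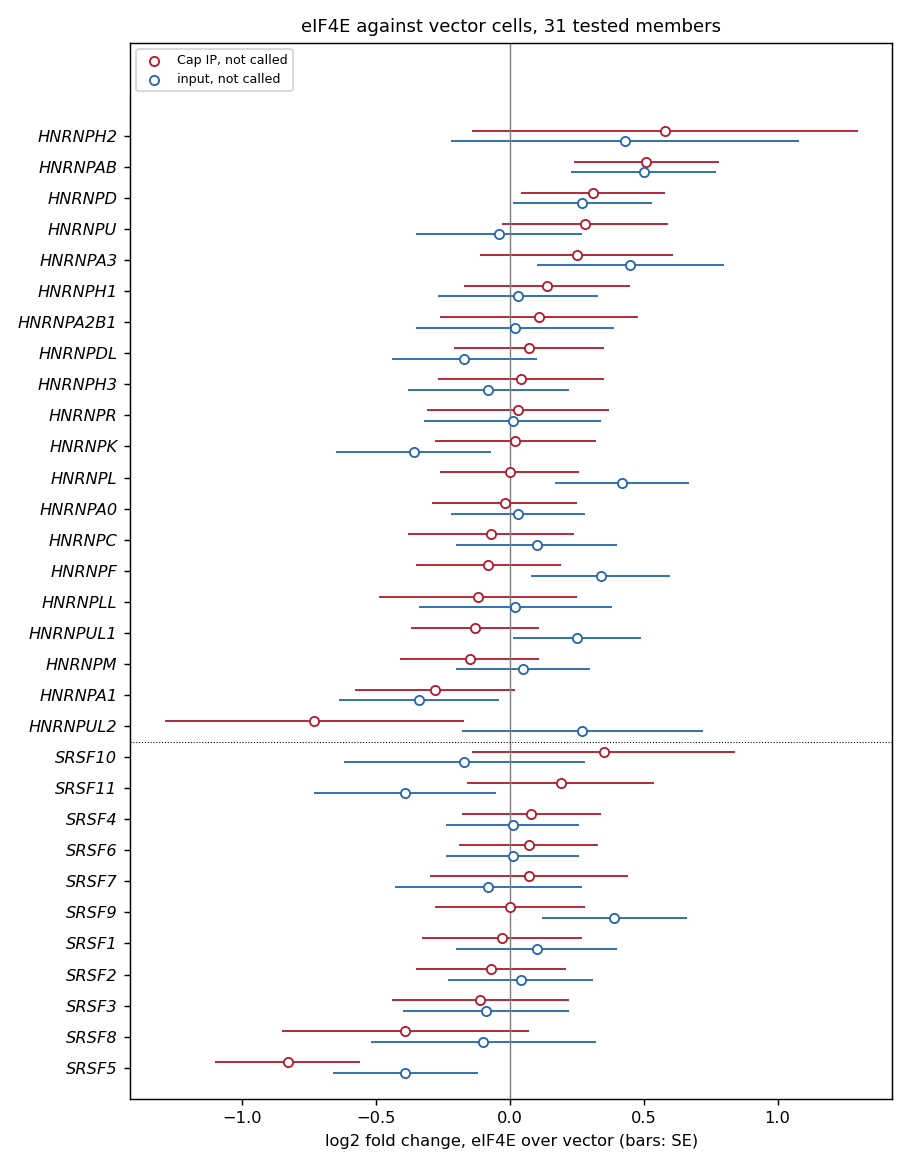
Log2 fold change of eIF4E over vector cells with its SE for the 31 tested genes, HNRNP above the dotted line and SRSF below it, in Cap IP (red, upper) and input (blue, lower). No point passed, and the lowest Cap IP value is that of SRSF5, at -0.83.

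The other genes named in this comparison did not pass. HNRNPL changed by 0.42 ± 0.25 in input (edgeR adjusted p = 0.477) and 0.00 ± 0.26 in Cap IP, HNRNPF by 0.34 ± 0.26 in input, HNRNPD by 0.31 ± 0.27 in Cap IP, and HNRNPA1 by -0.28 ± 0.30 in Cap IP and -0.34 ± 0.30 in input. HNRNPUL2 and HNRNPH2 had the largest errors, at -0.73 ± 0.56 and 0.58 ± 0.72 in Cap IP. For SRSF2 in Cap IP the 95% interval ran from -0.65 to 0.52 and for HNRNPA2B1 from -0.66 to 0.89.

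The last comparison asked whether Cap IP over input differed between eIF4E and vector cells. No gene of the 12460 was called (0%), and so none of the 31, by edgeR or by DESeq2. With the title stem as a block 51 of all genes were called, all higher, and with no filter on low counts 3 were, and in both none of the SRSF and HNRNP genes was among them. TMM scaling puts the bulk of genes near no change, so a shift shared by most genes would not show under it. The median difference under TMM was 0.00 for the 31 and 0.02 for all genes. With mitochondrial mRNAs as library sizes it was -1.01 and -0.87, and with total counts -0.13 and -0.08, again with none called. The mitochondrial sum ranged from 5560 to 27700 CPM among vector Cap IP libraries and from 12300 to 33400 CPM among eIF4E Cap IP libraries. That scale was thus uneven within groups, and a shift of all genes cannot be read from it. Of the 31 none had an unadjusted p under 0.05 by edgeR. The smallest adjusted p was that of HNRNPUL2, at 0.861 by edgeR, with a 95% interval of the difference from -2.50 to 0.49. SRSF11 had 0.58 ± 0.49, HNRNPK 0.37 ± 0.42, HNRNPU 0.32 ± 0.44, SRSF5 -0.44 ± 0.38, HNRNPL -0.42 ± 0.37 and HNRNPUL1 -0.38 ± 0.34. That edgeR called HNRNPU, HNRNPUL1 and HNRNPF in eIF4E cells only, and SRSF5 in vector cells only, therefore does not show a difference between the cells.

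The input libraries themselves were uneven. In eIF4E input replicate 3, 16 of the 31 genes (51.6%) were at their lowest of the 6 input libraries, and 24.6% of all genes were. The median log2 difference of that library from the mean of eIF4E input replicates 1 and 2 was -0.57 for the 31 and 0.13 for all genes, and 10 of the 31 (32.3%) were below -1, against 11.3% of all genes. HNRNPH2 lay lowest, at -2.58, then HNRNPA2B1 at -2.13, HNRNPR at -1.52, SRSF11 at -1.35 and HNRNPU at -1.31. SRSF5, HNRNPAB, HNRNPUL1 and HNRNPL were above 0, at 0.25, 0.23, 0.23 and 0.19. HNRNPR, which encodes a partner of neuronal mRNA transport, had 28 CPM in that library and 98.8 and 69.4 CPM in the other 2. The difference rose with the GC content of the MANE Select transcript, with a Spearman's rho of 0.53 over the 31 genes and 0.56 over 8760 genes. Without that library the median of Cap IP over input in eIF4E cells was 0.07, against 0.30 with it, and HNRNPAB, HNRNPDL, HNRNPUL1 and HNRNPF were still called.

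**Figure D5:**
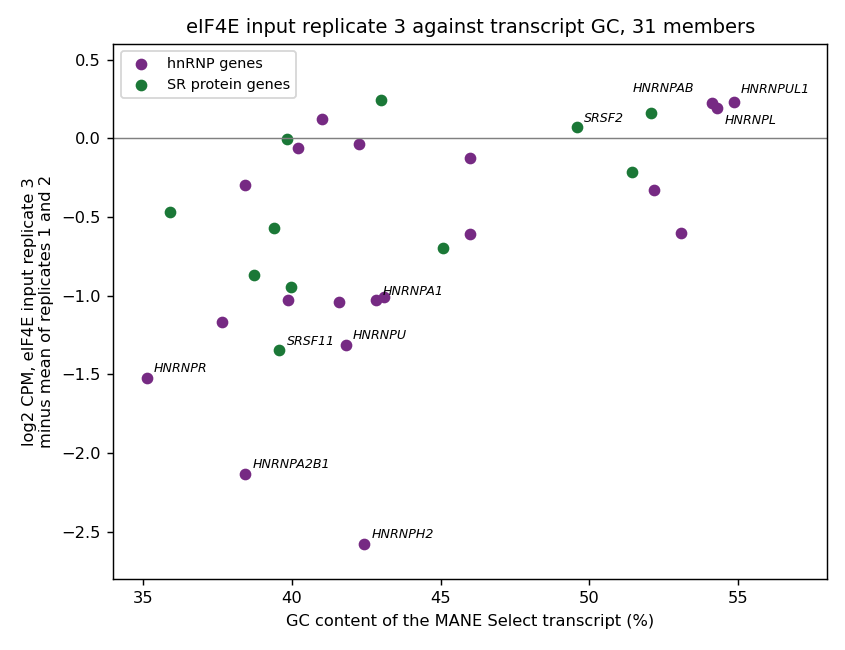
Log2 CPM of eIF4E input replicate 3 minus the mean of eIF4E input replicates 1 and 2, against the GC content (%) of each gene's MANE Select transcript, for the 31 tested genes (purple, HNRNP; green, SRSF). HNRNPR and HNRNPA2B1, of low GC, lie far below 0, and HNRNPAB, HNRNPL and HNRNPUL1, of high GC, lie just above it, but SRSF6 and HNRNPC, of low GC, lie at -0.00 and -0.06 and HNRNPM, of high GC, at -0.60.

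Levels per kilobase, over all annotated exonic bases of a gene, put HNRNPAB first in every group, at 234 ± 24.9 CPM per kb in eIF4E Cap IP, 165 ± 24.6 in vector Cap IP, 125 ± 16.3 in eIF4E input and 88.6 ± 22.4 in vector input (SD, n = 3 each). HNRNPM was next in both Cap IP groups, at 34.9 ± 2.33 in eIF4E and 38.6 ± 1.96 in vector cells, and HNRNPUL1 in both inputs, at 48.0 ± 4.79 and 40.3 ± 3.67. In eIF4E Cap IP the next in order, HNRNPU at 29.6 ± 5.67 and SRSF2 at 29.4 ± 5.13, did not differ beyond their spread on this scale. HNRNPUL2 and SRSF10 were the lowest 2 in each group, with 0.794 ± 0.194 and 1.70 ± 1.01 in eIF4E Cap IP. The order below HNRNPAB depended on the length used. Per kilobase of the MANE Select transcript, HNRNPU came next after HNRNPAB in eIF4E Cap IP, at 97 ± 18.6 CPM per kb, ahead of HNRNPM at 79 ± 5.27 and SRSF2 at 46.3 ± 8.09. On that scale HNRNPH2 lay below SRSF10 in vector input, at 2.12 ± 0.857 and 2.16 ± 0.98, which did not differ beyond their spread. The processed copies of HNRNPA1 are an added doubt, since 75 rows named as its pseudogenes held 766 counts and HNRNPA1 itself 2124, and 16 rows of HNRNPA3 pseudogenes held 217 against 647.

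Genes whose proteins work with these were taken from 4 lists, and their counts stand beside the 45.1% of all genes called in eIF4E cells and the 39.5% called in vector cells. Of 21 tested SR-related splicing proteins, 3 rose and 5 fell in eIF4E cells and 1 rose and 4 fell in vector cells, or 38.1% and 23.8%, both below those shares. SRRM2, a scaffold of nuclear speckles, fell by 2.42 on the log2 scale in eIF4E cells and by 2.29 in vector cells (edgeR adjusted p = 4e-06 and 9.11e-06), with means of 72.6 CPM in eIF4E Cap IP and 390 CPM in eIF4E input. SCAF1 fell by 1.88 in eIF4E cells and by 1.91 in vector cells, and THRAP3 fell by 1.23 and by 1.27 in the same order. Of 7 tested kinases and importers of SR proteins, 1 rose and 2 fell in eIF4E cells and 0 rose and 1 fell in vector cells. SRPK3, a kinase of SR proteins, fell by 1.98 in eIF4E cells and by 3.15 in vector cells (edgeR adjusted p = 0.000944 and 3.12e-05). Of 17 tested hnRNP proteins under other names and their kin, 0 rose and 4 fell in eIF4E cells and 1 rose and 2 fell in vector cells, with PTBP1, the polypyrimidine tract-binding splicing repressor, changed by -1.31 ± 0.27 in eIF4E cells and -0.95 ± 0.26 in vector cells (edgeR adjusted p = 0.000549 and 0.0074). CELF1 fell by 1.96 in eIF4E cells and by 1.90 in vector cells. Of 5 arginine methyltransferases and importers of hnRNPs, 1 rose and 2 fell in eIF4E cells and 1 rose and 1 fell in vector cells, or 60% and 40%. CARM1 rose by 0.91 in eIF4E cells and by 0.76 in vector cells (edgeR adjusted p = 0.0129 and 0.0378), and TNPO2 fell by 1.53 and by 0.96. In eIF4E against vector cells none of the genes on these 4 lists was called in Cap IP or in input.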

How the data were processed

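The data are RNA-seq of U2OS cells, with 3 libraries in each of 4 groups. The authors deposited raw counts for each gene name, not normalized. Per the submitters' processing notes, STAR 2.5.1b, featureCounts 1.4.5-p1 and DESeq2 were used with GRCh38.p5. Libraries were made with a KAPA RNA HyperPrep kit with RiboErase and read single-end, per the labels' protocols. Neither the strand setting nor the annotation used for counting is stated in the labels.

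The fits used edgeR 4.0.16, limma 3.58.1 and R 4.3.3. Genes kept by filterByExpr (12460) were scaled with TMM and fitted by edgeR's quasi-likelihood test with 1 mean per group over all 12 libraries. The 5 comparisons each called genes whose p, adjusted by Benjamini and Hochberg over all tested genes, was under 0.05. CPM used TMM-scaled library sizes, and 3 counts stood for 1.19 to 3.15 CPM. The procedure was also run on simulated data, with counts drawn independently for each library. Those data held no correlation between libraries that share a stem or tag, and the outcome is not given here. Pairs of replicates differed by 5.1 to 18 in chi-square per degree of freedom, so none was a copy. Genes were annotated by symbol with GENCODE release 44. Start sequences are from RefSeq. Annotation and figures used SciPy 1.17.1, NumPy 2.4.6, pandas 2.3.3 and matplotlib 3.10.9 in Python 3.11.15.

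Titles of Cap IP and input libraries share a stem, and titles of eIF4E and vector libraries share a tag. In replicate 1 the code just before the tag differs between eIF4E and vector libraries, and in the other replicates it is the same. Residuals of libraries with the same stem correlated at 0.35, 0.08 and 0.11 in eIF4E cells and 0.43, 0.27 and 0.44 in vector cells. For the same tag the values were 0.20, 0.16 and 0.30 in Cap IP and 0.18, 0.01 and -0.04 in input. Every pair was over 0.1 for the stem in vector cells and for the tag in Cap IP only. Counts of calls with a block are given, but a blocked fold change is given for HNRNPM only.

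Values per library are given for HNRNPA1, HNRNPA2B1, HNRNPC, HNRNPK, HNRNPU, SRSF1, SRSF2 and SRSF3 and for genes with the smallest p in each comparison, up to 4 a direction, and up to 3 genes with the smallest p are named per list. The genes, lists and tests were chosen with earlier results of these data known. Alternatives were DESeq2 1.42.0 as the test, other library sizes, other filters, the groups compared alone, both blocks, and each library left out.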

Additional observations from a re-analysis of the deposited data

How the results depend on the processing

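Of 14 alternatives, the call in eIF4E cells was kept in 13 for HNRNPUL1, 11 for HNRNPAB, 11 for HNRNPDL, 8 for HNRNPF and 6 for HNRNPU, and the call in vector cells in 12 for HNRNPAB, 11 for SRSF5 and 4 for HNRNPDL. Over all named genes, most of them not called, 924 values kept direction and call, 111 changed sign without being called, 34 lost a call, 11 gained one and 4 reversed. With total counts as library sizes the reversals in eIF4E cells were HNRNPU at -0.03 (edgeR adjusted p = 0.942), HNRNPC at -0.76 (edgeR adjusted p = 0.0336) and SRSF2 at -0.84 (edgeR adjusted p = 0.0124), and in vector cells HNRNPDL at -0.01 (edgeR adjusted p = 0.985). The genes called higher and lower for Cap IP against input in eIF4E cells were 3 and 2. They were 0 and 10 with total counts, 0 and 0 with mitochondrial mRNAs as library sizes, and 0 and 2 with no filter on low counts. In vector cells they were 3 and 0. They were 0 and 6 with total counts, 1 and 0 with no filter, 3 and 1 with DESeq2 as the test, and 2 and 1 with a filter of 50 counts in 3 libraries. The cause of these moves was not tested. With each library left out, 2 to 3 were higher and 1 to 2 lower in eIF4E cells, and 1 to 3 higher and 0 lower in vector cells. With the title stem as a replicate block 6 were higher and 2 lower in eIF4E cells, and 4 higher and 0 lower in vector cells. For eIF4E against vector 0 were called under every alternative run, replicate block for the title tag included. With the tag as a block, all tested genes gave 462 calls in input, against 66 without it, and with the stem as a block the difference gave 51, against 0. At 1206321 to 1813486 counts per library, HNRNPUL2 and HNRNPH2 had 139 and 115 counts in all libraries together, and theirs were the largest errors in Cap IP against input. What set these errors was not tested.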
